A study of Homo sapiens with 4 samples.

Results

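Chromosome 19 carries the densest set of zinc finger genes in the human genome, and 250 of its 1451 protein-coding genes bear a symbol of ZNF followed by a number. These 250 genes, called ZNF genes here, were taken by symbol from the RefSeq annotation of GRCh38.p14, a patch release of the build that the submitters' processing notes call hg38. They were examined in ChIP-seq with an HA antibody of MDA-MB-231 cells, a widely used human cell line of triple-negative breast cancer. PD-L1, the immune checkpoint ligand, is the target given in the sample titles. All samples came from untreated subclone cells labelled wild type, and no source used here says how PD-L1 came to carry an HA tag. There were 2 ChIP replicates, independent per the series' design, each with an input library. Per the same text, peaks were called for each replicate by itself. Peak names in the list of replicate 2 hold the word Merge, however, so it is not known whether that list rests on 1 replicate alone, and agreement between the lists may not be between independent samples. No mock precipitation was analysed here, so recovery of chromatin without the target cannot be told apart from binding.

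Most ZNF genes of chromosome 19 encode C2H2 zinc finger proteins with a KRAB domain, which recruits the corepressor TRIM28 and through it the histone methyltransferase SETDB1 and HP1 proteins. Many silence transposable elements. The genes arose by tandem duplication, lie in clusters, and have a short promoter, long introns and the finger array in the last exon. In many cell types their bodies, above all that last exon, carry the heterochromatin mark H3K9me3 while their promoters stay open.

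The list of replicate 1 held 7718 peaks on chromosome 19 and that of replicate 2 held 4242. A shared region was a union of overlapping peaks with at least 1 peak of each replicate. It counted for a gene body or window when any part of the union met it. The peak of 1 replicate could thus lie outside, as at ZNF850, whose body held no peak of replicate 1. Library depth is unknown, since the lists hold no read counts. The fold enrichments and q-values given below are the authors' own. Neither genes nor peaks are replicates, and the ZNF genes share neighbourhoods and ancestry. All comparisons of gene groups below are therefore descriptions without a test, with both replicates side by side.

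Promoters of 6 ZNF genes show the range from full cover to none. They were picked after their values were seen, from genes named for their textbook role. The stretches are the 250 bases before the RefSeq start site (GRCh38.p14), and capitals mark bases under a peak of both replicates. ZNF224, first described as a repressor of the aldolase A gene (chr19:44094111-44094360, plus strand), ZNF350, a partner of BRCA1 (chr19:51986841-51987090, minus strand), and ZNF274, which recruits SETDB1 to the last exons of other ZNF genes (chr19:58182811-58183060, plus strand), had peaks of both replicates. ZNF91, which silences SVA and L1 elements (chr19:23395472-23395721, minus strand), ZNF93, which silences L1 elements (chr19:19900696-19900945, plus strand), and ZNF43 (chr19:21836183-21836432, minus strand) had none. The RefSeq start used for ZNF43 lies inside its annotated gene body, and a peak of replicate 1 met the window at the outer end of the gene on that side.
ZNF224: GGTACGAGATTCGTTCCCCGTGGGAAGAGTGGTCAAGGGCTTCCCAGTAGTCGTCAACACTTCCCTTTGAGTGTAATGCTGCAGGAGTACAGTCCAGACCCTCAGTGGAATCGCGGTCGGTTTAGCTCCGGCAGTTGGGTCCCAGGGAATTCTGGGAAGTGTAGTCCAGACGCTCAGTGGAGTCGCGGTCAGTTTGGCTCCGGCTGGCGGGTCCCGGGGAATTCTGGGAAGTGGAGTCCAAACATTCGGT
ZNF350: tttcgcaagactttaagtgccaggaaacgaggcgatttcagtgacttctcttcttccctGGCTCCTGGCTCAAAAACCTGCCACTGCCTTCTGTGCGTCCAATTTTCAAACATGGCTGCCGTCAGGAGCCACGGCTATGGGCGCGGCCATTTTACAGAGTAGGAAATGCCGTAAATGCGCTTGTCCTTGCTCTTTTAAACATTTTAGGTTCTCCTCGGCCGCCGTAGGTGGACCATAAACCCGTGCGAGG
ZNF274: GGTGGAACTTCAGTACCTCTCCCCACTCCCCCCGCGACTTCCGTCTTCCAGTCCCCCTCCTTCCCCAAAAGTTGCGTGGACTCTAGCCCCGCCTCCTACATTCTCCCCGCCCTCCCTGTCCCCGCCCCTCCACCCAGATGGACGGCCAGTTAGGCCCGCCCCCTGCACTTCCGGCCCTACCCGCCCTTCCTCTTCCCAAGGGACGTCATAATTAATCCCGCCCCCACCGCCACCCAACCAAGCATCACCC
ZNF91: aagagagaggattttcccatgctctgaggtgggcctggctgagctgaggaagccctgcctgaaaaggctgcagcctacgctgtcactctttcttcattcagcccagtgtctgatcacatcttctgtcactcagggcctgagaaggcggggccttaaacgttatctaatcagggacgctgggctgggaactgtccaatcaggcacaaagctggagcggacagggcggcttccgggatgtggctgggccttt
ZNF93: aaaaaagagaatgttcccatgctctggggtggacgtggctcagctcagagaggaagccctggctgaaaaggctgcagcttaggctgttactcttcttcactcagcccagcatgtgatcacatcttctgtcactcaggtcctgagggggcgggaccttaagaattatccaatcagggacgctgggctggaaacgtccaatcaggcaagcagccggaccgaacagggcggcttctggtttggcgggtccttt
ZNF43: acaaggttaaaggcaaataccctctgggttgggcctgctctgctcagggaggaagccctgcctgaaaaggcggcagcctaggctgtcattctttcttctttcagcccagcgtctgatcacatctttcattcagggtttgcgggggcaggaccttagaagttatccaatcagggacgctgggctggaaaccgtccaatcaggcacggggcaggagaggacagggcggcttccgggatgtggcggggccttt
All 250 bases lay under peaks of both replicates at ZNF224 and ZNF274, and 191 bases did at ZNF350. The promoters without peaks resembled each other. In global alignments, 83.1% of columns were identical between ZNF91 and ZNF93, 80.6% between ZNF91 and ZNF43 and 79.2% between ZNF93 and ZNF43. Pairs with ZNF224, ZNF350 or ZNF274 had 45.2% to 52.8%. ZNF91, ZNF93 and ZNF43 held 7, 8 and 9 CG dinucleotides, against 15, 15 and 14 at ZNF224, ZNF350 and ZNF274.

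ZNF genes carried peaks in their bodies less often than other genes of chromosome 19. A shared region lay in the body of 86 ZNF genes (34.4%, Wilson 95% interval 28.8% to 40.5%, which covers counting error only). The share was 66.5% of the 1201 other protein-coding genes of the chromosome and 48.9% of all 19974 protein-coding genes. ZNF genes are the longer ones, with a median of 23254 bp against 12694 bp. When the other genes were weighted to the length classes of the ZNF genes, their share was 76.8%. In replicate 1 alone, 70.4% of ZNF bodies held a peak, against 84.6% of the other genes of chromosome 19 (89.5% at like length) and 77.1% of all genes. In replicate 2 alone, the shares were 45.6%, 70.6% (82.6%) and 60.4%. Both replicates thus placed ZNF genes below the chromosome's other genes and below all genes. With peaks of a −log10 q of at least 2 alone, the shares were 8.80% and, at like length, 29.3%.

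The gap in shared regions differed between length classes. Under 10 kb, 14 of 28 ZNF genes (50%) and 232 of 471 other genes (49.3%) held a shared region inside the body. These genes were not of like length within the class, with medians of 7852 and 5022 bp. The replicates differed there: a body peak of replicate 1 was more frequent in ZNF genes (92.9% against 76.6%), and one of replicate 2 was in 46.4% against 49.5%. From 10 to 20 kb the shares were 36.6% and 66.9%, from 20 to 40 kb 30.6% and 86.0%, and over 40 kb 30.2% of 43 ZNF genes and 88.1% of 159 other genes. Among other genes longer bodies held a region more often, while among ZNF genes the share was lower in the longer classes. At gene ends, the shares under 10 kb were 46.4% and 48.6%, and from 10 to 20 kb 28.2% and 49.6%. From 20 to 40 kb they were 21.3% and 62.3%, and over 40 kb 16.3% and 54.1%, so the gap at ends was widest from 20 to 40 kb.

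**Figure D1:**
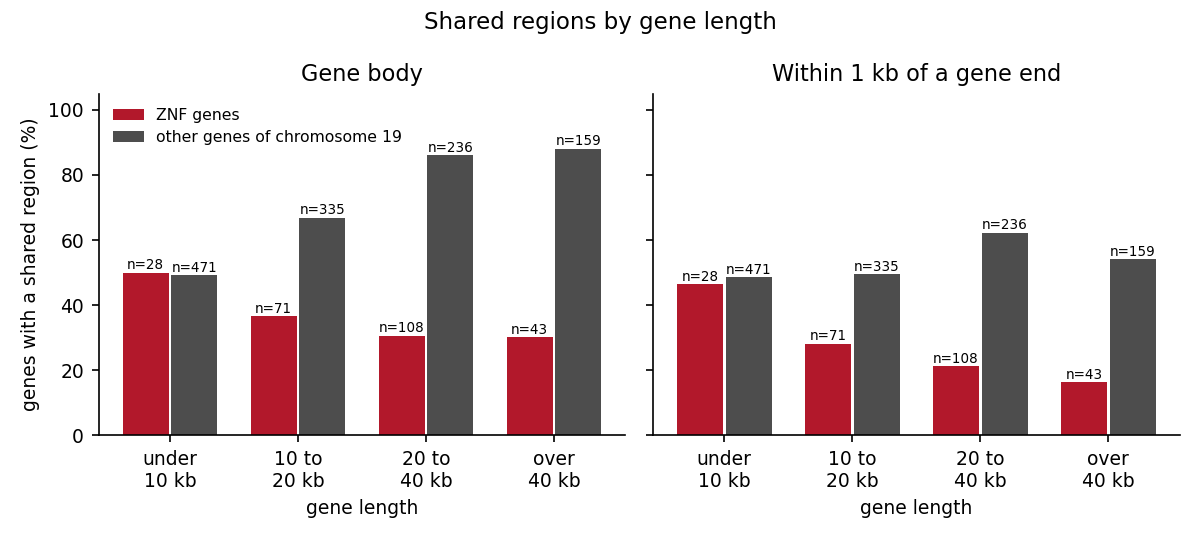
Share of genes with a shared region in the body (left) or within 1 kb of either gene end (right), by gene length, for ZNF genes (red) and other protein-coding genes of chromosome 19 (grey); n above each bar is the number of genes. The bars are level under 10 kb (50% and 49.3% in the body) and further apart over 40 kb (30.2% and 88.1%).

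The share of bases under peaks does not grow with length as a share of genes does, and it differed likewise. The median ZNF body had 2.46% of its bases under peaks of replicate 1 (quartiles 0% and 9.28%) and 0% in replicate 2 (quartiles 0% and 3.09%). Other genes of chromosome 19 had medians of 25.4% and 6.87%, and all protein-coding genes 4.59% and 1.19%, all without weighting for length. Over all ZNF bodies together, 5.24% of bases in replicate 1 and 2.35% in replicate 2 lay under peaks. Other genes, weighted to the same length classes, had 23.3% and 8.73%. The ZNF cover was thus far below theirs in both lists. It was nearer to the pooled cover of all protein-coding genes, which was 7.41% and 3.22% without weighting.

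Peaks that did lie over ZNF bodies resembled those over other genes in the authors' fold enrichment. In replicate 1, the 480 peaks over ZNF bodies had a median fold of 3.23 (5% and 95% points 2.81 and 3.82), against 3.27 for 5376 peaks over other gene bodies of the chromosome. In replicate 2, 252 peaks had a median of 2.28 (2.00 and 2.84), against 2.22 for 2786 peaks. The highest −log10 q over a ZNF body was 3.55 in replicate 1 and 4.24 in replicate 2. Peaks over ZNF bodies were somewhat narrower, with median widths of 668 and 626 bp against 792 and 701 bp.

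Every ZNF gene fell into 1 of 4 classes by body peaks: 106 had peaks of both replicates, 70 of replicate 1 only, 8 of replicate 2 only and 66 of neither. The 8 were ZNF823, ZNF506, ZNF253, ZNF850, ZNF285, ZNF432, ZNF534 and ZNF835. Of the 66, 64 also had no peak within 1 kb of either end, and ZNF829 and ZNF283 had a peak there but not in the body. In 34 cases the body overlapped that of another ZNF gene, so such neighbours share peaks.

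Shared regions within 1 kb of a gene end were also less frequent at ZNF genes. They were found at 63 of 250 (25.2%, Wilson 95% interval 20.2% to 30.9%), against 52.3% of other genes of chromosome 19 (55.7% at like length) and 32.9% of all genes. In replicate 1 alone 59.2% of ZNF genes had a peak at an end, against 82.7% of the other genes (68.8% of all genes). In replicate 2 alone the shares were 29.2% and 53.5% (37.1% of all genes). Of the 63 genes, 12 had a shared region at both ends and 51 at 1 end, and each of the 63 also had one in the body. A further 23 had a region in the body alone.

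With peak pairs that overlapped reciprocally by 50% in place of unions, the gap at gene ends nearly closed, at 12% of ZNF genes against 16.3% of other genes of like length.

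The start-site end accounted for most of the regions. This end was the annotated gene end on the start side, and the outermost RefSeq start lay exactly there in 182 of 219 ZNF genes. The strand was known for 219 ZNF genes and 966 other genes of chromosome 19. Of these ZNF genes, 57 had a shared region at an end, 36 at the start alone, 10 at the far end alone and 11 at both. A shared region met the start-site window of 47 ZNF genes (21.5%), against 39.9% of the other genes and 24.1% of all genes with known strand. The window at the far end was met in 21 (9.59%), against 34.0% and 17.6%. In replicate 1, a peak met the start-site window in 58.9% of ZNF genes and the far window in 15.5%, against 81.0% and 68.0% of other genes (64.7% and 36.5% of all genes). In replicate 2, the shares were 24.2% and 9.13%, against 37.3% and 34.4% (26.0% and 18.7% of all genes). In both replicates, the share of ZNF genes with a peak at the far end was thus several times lower than in other genes of chromosome 19, and the shortfall at the start was smaller. Set beside all genes, ZNF genes were only slightly lower at the start (58.9% against 64.7% and 24.2% against 26.0%). At the far end they were also below all genes, by less than against other genes of chromosome 19.

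Cover along the gene was then measured in 10 equal bins of the body. Over ZNF genes of 10 to 40 kb (n = 153), peaks of replicate 1 covered on average 21.4% of the kb before the start and 21.1% of bin 1 of the body. Cover then lay between 3.70% and 5.96% from bin 3 to bin 10. Other genes of that length (n = 458) had 44.6%, 43.4% and 21.2% to 35.9%. Bin 1 of ZNF genes had 4.22 times the mean cover of bins 3 to 10 in replicate 1 and 3.63 times in replicate 2, against 1.72 and 1.44 in other genes. In replicate 2, ZNF cover was 7.72% in the kb before the start, 7.94% in bin 1 and 1.34% to 3.50% from bin 3 on. Bin 10 had 5.95% and 1.87% in replicates 1 and 2, against 35.9% and 11.1% in other genes.

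**Figure D2:**
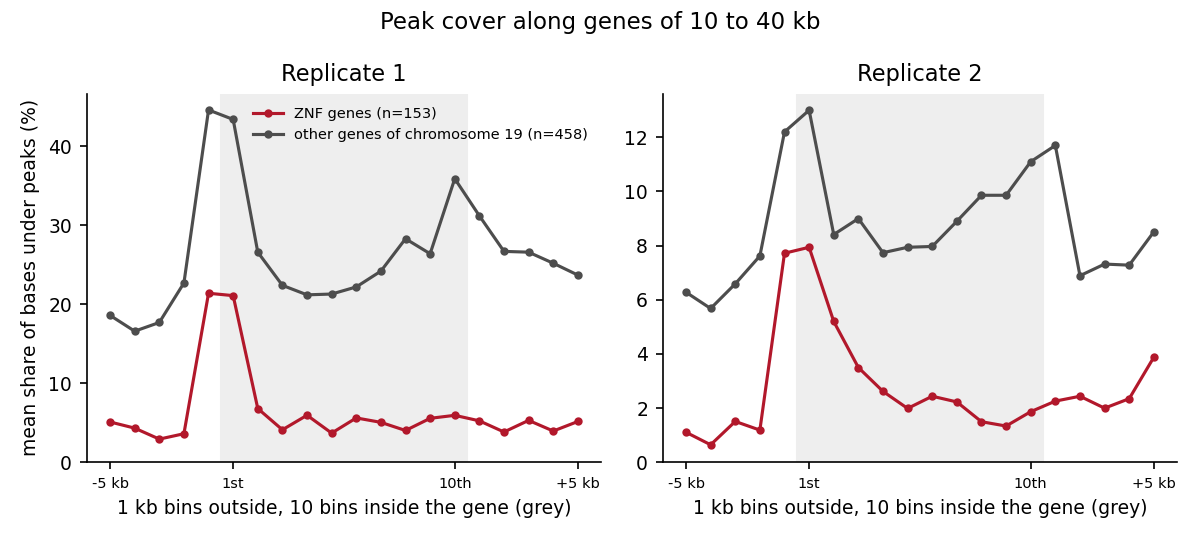
Mean share of bases under peaks along genes of 10 to 40 kb with known strand, in 1 kb bins from 5 kb before the start to 5 kb past the end and in 10 bins of the body (grey area), for 153 ZNF genes (red) and 458 other genes of chromosome 19 (grey line); the vertical scales of the panels differ. ZNF genes peak around the start (21.4% and 7.72% in the kb before it) and stay low over the rest of the body, while other genes rise again toward bin 10 (35.9% and 11.1%).

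The ZNF gene with the best-ranked region at an end, by mean rank of its top fold over both replicates, was ZNF136 (region chr19:12162662-12164041, fold 3.78 in replicate 1 and 2.63 in replicate 2). ZNF766 followed (chr19:52269004-52270640, 3.92 and 2.49), then ZNF233 (chr19:44259799-44260267, 3.63 and 2.58) and ZNF653 (chr19:11504468-11507129, 3.51 and 2.73). ZNF224 was the fifth, with a narrow region over its start (chr19:44094016-44094433, 4.04 and 2.39). In its body, 0.472% of bases lay under peaks of replicate 1 and 0.272% in replicate 2, and a further peak of replicate 2 met its far-end window. ZNF574 had its best region over the far end (chr19:42077058-42081933, 3.39 and 2.65). ZNF541, which acts in spermatogenesis, also had it at the far end (chr19:47521336-47522455, 3.54 and 2.43). The next were ZNF44 (chr19:12294405-12295011, 3.52 and 2.42), ZNF606 (chr19:58002213-58003308, 3.35 and 2.64) and ZNF497 (chr19:58350091-58354927, 3.45 and 2.42). The start-site end held the region in ZNF136, ZNF766, ZNF653, ZNF224, ZNF44 and ZNF606, the far end held it in ZNF574, ZNF541 and ZNF497, and the strand of ZNF233 was not known here.

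Within bodies, the best-ranked regions lay in ZNF653 (chr19:11489654-11491520, fold 3.70 and 2.78 in replicates 1 and 2) and ZNF77 (chr19:2939340-2939655, 3.62 and 3.01). In ZNF136, ZNF766, ZNF233 and ZNF224 the best body region was the same as at the gene end. ZNF787 (chr19:56114116-56117159, 3.65 and 2.52), ZNF585A (chr19:37169651-37170042, 3.41 and 3.36), ZNF8 (chr19:58284394-58286923, 3.76 and 2.40) and ZNF805 (chr19:57247237-57247891, 3.41 and 2.68) completed the first 10. ZNF585A had only 3.58% and 3.19% of its body under peaks, whereas ZNF787 had 52.7% and 12.2%.

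By the mean of both replicates, the 5 genes with the highest cover were 3565 to 10621 bp long. ZNF524, the shortest of these, had 100% of its bases under 1 peak of replicate 1 and 16.5% in replicate 2. ZNF581 had 57.2% and 31.4%, ZNF414 77.6% and 9.02%, ZNF576 60.3% and 22.9%, and ZNF792 54.2% and 19.7%. Each replicate alone gave another order: ZNF580 (64.2%), ZNF296 (59.4%) and ZNF574 (59.1%) were above ZNF581 in replicate 1, and ZNF428 (33.9%) was the highest in replicate 2. These 4 were named after their values were seen. ZNF536, a repressor of neuronal differentiation, was the longest at 487995 bp and held 81 peaks of replicate 1 and 58 of replicate 2, with 22 shared regions in its body and none at its ends. Its cover was 11.5% and 8.80%. Across the 250 genes, the share of bases under peaks in replicate 1 against replicate 2 had a Spearman's rho of 0.579, a description over genes that share clusters.

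**Figure D3:**
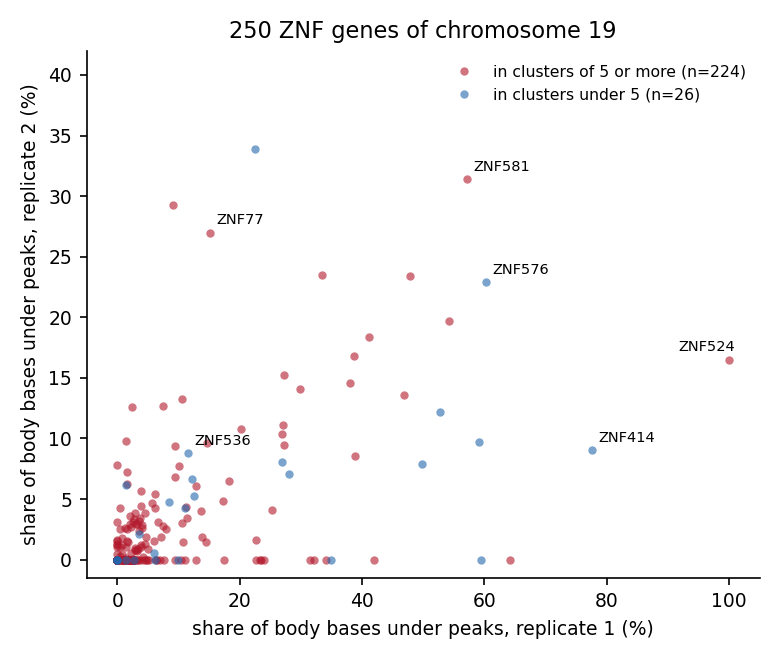
Share of body bases under peaks of replicate 1 (horizontal) and replicate 2 (vertical) for each of the 250 ZNF genes, with genes in clusters of 5 or more in red and the rest in blue. Most points crowd near the origin, and genes such as ZNF524 (100% and 16.5%) and ZNF581 (57.2% and 31.4%) stand apart.

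Joined when 200 kb or less apart, the ZNF genes formed 30 groups: 13 clusters of 5 or more genes with 224 genes in all, 5 groups of 2 to 4 genes, and 12 single genes. Within the spans of the 30 groups (12.8 Mb) the density was 56.9 peaks per Mb for replicate 1 and 31.4 for replicate 2. The rest of the chromosome (42.2 Mb, without a gene-free stretch of 3.50 Mb) had 165 and 90.9. The ratio was 0.344 in replicate 1 and 0.346 in replicate 2. The rest of this chromosome is rich in peaks. Per Mb of gene body, other genes of chromosome 19 had 225 and 113 peaks in replicates 1 and 2. All protein-coding genes had 79.5 and 42.4, and ZNF genes had 67.5 and 34.8. A density over the whole genome was not computed. Inside the 13 clusters, ZNF bodies had 4.02% and 1.76% of bases under peaks and the sequence between them 3.75% and 1.91%. Cover was thus alike in the ZNF bodies and between them. The sequence between them includes bodies of other genes and the stretches before ZNF starts. Like sequence outside the clusters was not measured.

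Clusters differed widely from each other. Over the 13 clusters peaks per Mb ran from 1.06 to 254 in replicate 1 and from 3.70 to 154 in replicate 2, with a Spearman's rho of 0.940 between replicates, given as a description over clusters of 1 chromosome. In 10 of the 13, both replicates had fewer peaks per Mb than in the flanks of 200 kb on each side. The exceptions in both were ZNF628 to ZNF580, ZNF582 to ZNF835 and ZNF264 to ZNF446. Flanks of some neighbouring clusters overlap, so the 13 comparisons are not separate.

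Almost no peaks lay in the clusters nearest the centromere on the short arm. ZNF737 to ZNF98 (chr19:20530276-22422346, 18 genes) had 2 peaks of replicate 1 and 7 of replicate 2. ZNF492 to ZNF91 (chr19:22634324-23395471, 7 genes) had 1 and 4, and ZNF675 to ZNF254 (chr19:23652801-24129968, 4 genes) had 1 and 4. No gene of these had a shared region in its body or at an end, and 27 of the 29 had no body peak in either replicate: 16 of 18, 7 of 7 and 4 of 4. Flanks of the first pair were poor too, with 5.00 peaks per Mb in replicate 1 at each and 20 and 25 in replicate 2. The flanks of this pair overlap where the clusters face each other, so these values are not separate. Of the 5 longest ZNF genes without any peak, ZNF254 (96520 bp), ZNF91 (90468 bp), ZNF676 (81216 bp) and ZNF730 (72011 bp) lie there, and ZNF69 (92441 bp) lies in the cluster ZNF653 to ZNF791. ZNF43 had 1 peak of replicate 1, at the outer end of the gene on its start side, over 0.0828% of its body.

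Clusters with a moderate number of peaks held most of the genes. ZNF577 to ZNF331 (chr19:51804442-53580269, 40 genes) had 32.1 and 18.6 peaks per Mb in replicates 1 and 2, 16 genes without a body peak and 6 genes with a shared region at an end, led by ZNF766. ZNF565 to ZNF573 (chr19:36182060-37779586, 26 genes) had 31.3 and 15.6, with 3 such genes, led by ZNF565 (fold 3.35 and 2.49). ZNF653 to ZNF791 (chr19:11483429-12633834, 25 genes) had 52.2 and 30.4, with 6, led by ZNF136. ZNF283 to ZNF180 (chr19:43827321-44500522, 20 genes) had 46.0 and 28.2, with 6, led by ZNF233. ZNF317 to ZNF846 (chr19:9140397-9786160, 12 genes) had 32.5 and 12.4, with 4, led by the region that ZNF559 shares with the read-through gene ZNF559-ZNF177 (3.56 and 2.28). ZNF101 to ZNF486 (chr19:19668153-20200488, 8 genes), the cluster of ZNF93, had 24.4 in each replicate and 1 such gene, ZNF14 (3.17 and 2.15).

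The remaining clusters were nearer to the rest of the chromosome. ZNF264 to ZNF446 (chr19:57191500-58489533), the largest with 43 genes, had 139 and 57.8 peaks per Mb. It held 23 genes with a shared region in the body and 15 with one at an end, led by ZNF606. ZNF628 to ZNF580 (chr19:55476617-55645623, 7 genes with a median length of 4075 bp) had 254 and 154, above the rest of the chromosome in both replicates, and 6 of its 7 genes had a shared region at an end, led by ZNF628 (3.48 and 2.39). ZNF554 to ZNF77 (chr19:2819868-2944971, 5 genes) had 128 and 71.9, with 3 genes at an end, led by ZNF77 (2.83 and 2.80). ZNF302 to ZNF792 (chr19:34675979-34964229, 5 genes) had 86.7 and 45.1, with 1, ZNF599 (2.90 and 2.13). ZNF582 to ZNF835 (chr19:56382751-56671757, 8 genes) had 76.1 and 55.4 and none at an end. The 26 ZNF genes outside the 13 clusters had a shared region in the body in 61.5% and at an end in 46.2%, against 31.2% and 22.8% inside.

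**Figure D4:**
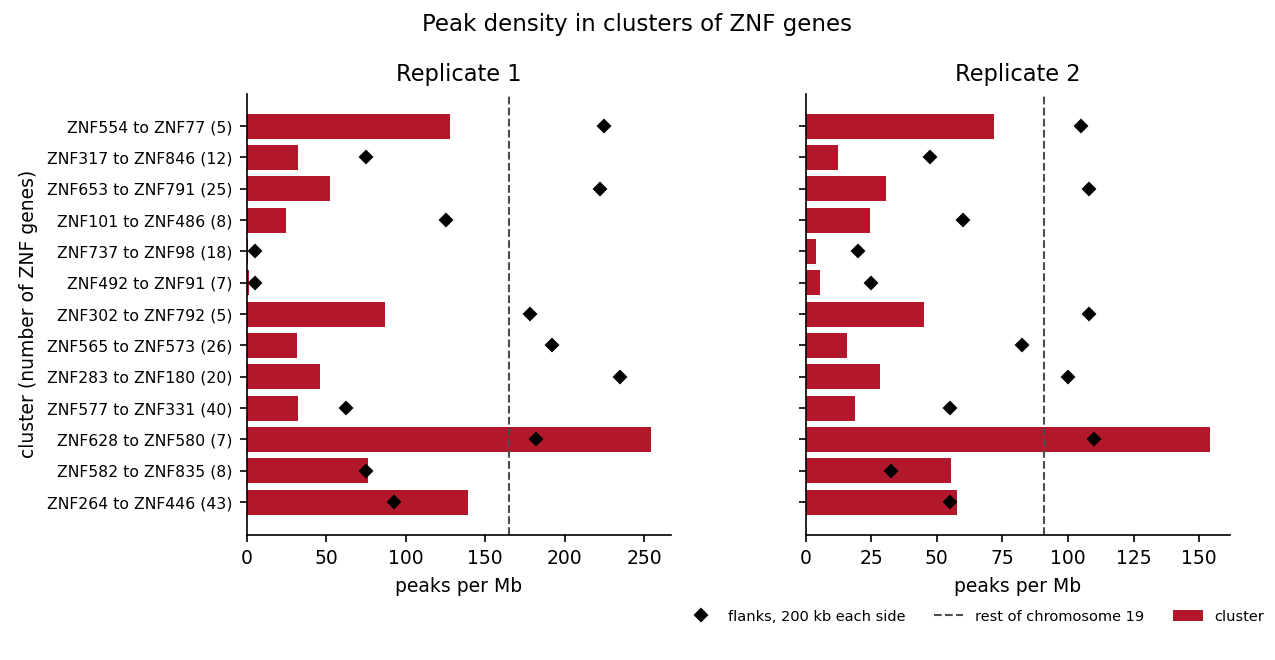
Peaks per Mb (horizontal) in the 13 clusters of 5 or more ZNF genes in chromosome order (bars; number of genes in brackets), in their flanks of 200 kb on each side (diamonds) and in the rest of chromosome 19 outside all groups of ZNF genes (dashed line), for each replicate. In 10 of 13 clusters the bar ends short of the diamond in both replicates, and the bars for ZNF737 to ZNF98 (1.06 and 3.70) and ZNF492 to ZNF91 (1.31 and 5.26) are close to 0.

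ZNF genes known from work on cancer and imprinting differed in their peaks. ZNF274 had 10 peaks of replicate 1 over 22.6% of its body and 2 of replicate 2 over 1.59%, with a shared region at its start (fold 3.40 and 2.2). ZNF350 had a region at its start (2.83 and 2.37). ZNF154 and ZNF671, whose promoters are often methylated in tumours, each had a region at an end (3.04 and 2.55 at ZNF154, 3.41 and 2.12 at ZNF671), at the start of ZNF154 and at the far end of ZNF671. ZNF582, of which the same is known, had 1 peak of each replicate in its body and no shared region. ZNF304 had 2 peaks of replicate 1 over 22.7% of its body and none of replicate 2. ZNF146, which consists of fingers without a KRAB domain, had 2 and 0. The imprinted gene ZNF331 had 3 and 2 peaks that formed no shared region. ZNF382, ZNF91 and ZNF93 had no body peak of either replicate.

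The RefSeq promoter table held an entry of 300 bases, from 250 before to 50 past the start site, for 219 ZNF genes, and the outermost entry of each gene was used. A peak of replicate 1 overlapped the entry in 122 (55.7%) and one of replicate 2 in 44 (20.1%), against 66.9% and 17.4% of 966 other genes. Peaks of both replicates lay over the entry in 34 ZNF genes (15.5%) and in 14.7% of the other genes. A shared region met the entry in 21.0% and 34.5%. The gap in shared regions was thus absent when both peaks had to lie over the 300-base entry. It stayed over wider stretches. With a peak of each replicate within 1 kb of either gene end, the shares were 24.0% and, for other genes of like length, 54.5%. With a peak of each replicate in the body, they were 42.4% and 81.1%. ZNF promoters with a peak of replicate 1 had a median of 22 CG dinucleotides and those without had 17.0, against 24 and 11 in other genes. For replicate 2, ZNF promoters had medians of 23 with a peak and 19 without, while other genes ran the other way, with 19.5 and 21.5. The motif CCAAT, read on both strands, was in 53.9% of ZNF promoters, 37.4% of those of other genes of chromosome 19 and 34.6% of all 35116 entries. It was in 49.2% of ZNF promoters with a peak of replicate 1 and 59.8% of those without. TCTCGCG, chosen after the shown promoters were read, was in 5.02% of ZNF promoters, 4.04% of the other genes and 3.49% of all entries. GGGCGG was in 67.1%, 65.7% and 45.0%, and TATAAA in 2.28%, 8.07% and 11.5% of ZNF, other chromosome 19 and all entries.

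Copied promoter sequence moved with the absence of peaks. In 54 of the 219 ZNF promoters (24.7%), a stretch of 30 bases recurred without mismatch, on either strand, in the promoter of another gene that did not overlap it, against 6.42% of other genes. Among ZNF promoters with such a stretch, a peak of replicate 1 lay over 14.8% and one of replicate 2 over 9.26%. Among the 165 without one, the shares were 69.1% and 23.6%, and in the 904 other genes without one they were 70.9% and 18.5%. The 62 other genes with one had 8.06% and 1.61%. Copied ZNF promoters also had fewer CG dinucleotides, with a median of 14 against 22 in the rest. A shared region met 25.5% of ZNF promoters without a copied stretch and 36.7% of such promoters of other genes, against 7.41% and 1.61% of those with one. In a shared region the peak of 1 replicate may lie outside the promoter. All 23 promoters with an entry in the clusters ZNF737 to ZNF98, ZNF492 to ZNF91 and ZNF675 to ZNF254 held a copied stretch, among them those of ZNF91 and ZNF43, and 1 of the 23 met a peak of replicate 1 and none met one of replicate 2. Outside these clusters, 31 of 196 promoters held one, and 7 of the 31 (22.6%) met a peak of replicate 1, against 69.1% of those without one. In replicate 2 the contrast outside these clusters was small, at 16.1% against 23.6%. ZNF224 and ZNF93 are 2 of the 31, the first with peaks of both replicates and the second with none.

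Where the promoter held no copied stretch, the bodies of ZNF genes stayed below those of other genes of chromosome 19. Of these 165 genes, 43.0% carried a shared region within the body, against 73.6% of the 904 other genes, and the median cover was 3.93% and 1.00% in replicates 1 and 2, against 28.7% and 8.14%. Gene length was not weighted here. All protein-coding genes, whatever their promoter, were nearer, with 48.9% and median covers of 4.59% and 1.19%. Copied sequence within bodies was not examined. The length of 30 bases was chosen after the data were seen. With 50 bases, 7 ZNF promoters held a copied stretch and none of these met a peak of either replicate, while 57.5% of the other 212 met one of replicate 1, against 69.4% of other genes. No source used here says whether reads from repeated sequence were kept, and the part of this and of CG content in these results was not tested.

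**Figure D5:**
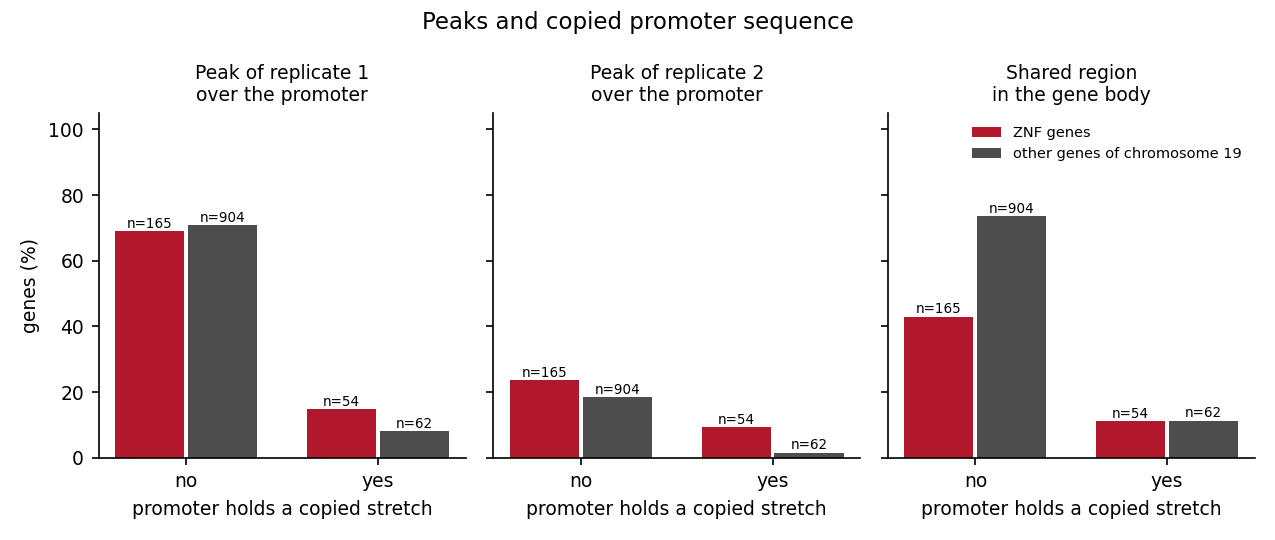
Share of genes with a peak of replicate 1 (left) or replicate 2 (middle) over the 300-base promoter, and with a shared region in the body (right), split by whether the promoter holds a stretch of 30 bases that recurs in the promoter of another gene, for ZNF genes (red) and other genes of chromosome 19 (grey); n is the number of genes. Without a copied stretch the red and grey bars are near each other at the promoter (69.1% and 70.9% in replicate 1) and apart in the body (43.0% and 73.6%).

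Other zinc finger genes of chromosome 19, with names such as ZFP, ZSCAN, ZIM and ZBTB, were too few for a close comparison. They were taken by name, and the type of zinc finger was not checked. Of 19 such genes, 9 (47.4%, Wilson 95% interval 27.3% to 68.3%) had a shared region in the body and 4 (21.1%) at an end: ZBTB32, ZFP36, ZSCAN1 and ZSCAN22. The 267 ZNF genes of other chromosomes had a shared region in the body in 44.9% and at an end in 28.1%. These shares lie between those of the ZNF genes of chromosome 19 (34.4% and 25.2%) and of all genes (48.9% and 32.9%). At the start-site window the ZNF genes of other chromosomes were close to those of chromosome 19, with 22% against 21.5% for shared regions and 23.9% against 24.2% in replicate 2, while replicate 1 had 71.1% against 58.9%. At the far-end window they were higher, with 13.3% against 9.59% for shared regions, 28.9% against 15.5% in replicate 1 and 14.7% against 9.13% in replicate 2. Within the spans of the ZNF groups, 51 protein-coding genes were no ZNF genes, and 52.9% of these had a shared region in the body and 43.1% at an end, against 67.1% and 52.7% of the 1150 other genes outside.

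A list of 19 genes of silencing and heterochromatin, on any chromosome, held TRIM28 and SETDB1 as well as factors not tied to KRAB proteins alone. Of these, 8 (42.1%) carried a shared region within the body and 4 (21.1%) at an end, against 48.9% and 32.9% of all genes. TRIM28, the corepressor, lies on chromosome 19 just past the last ZNF cluster (chr19:58544064-58550715), with 2 peaks of each replicate over 79.5% and 20.3% of its body and a shared region at an end (fold 3.13 and 1.98). DNMT1, the maintenance DNA methyltransferase (3.33 and 2.28), CHD3, a remodeller of the NuRD complex (3.59 and 1.96), and EHMT1, an H3K9 methyltransferase (3.43 and 2.33), were the others at an end. SETDB1 had 4 peaks of replicate 1 and 1 of replicate 2, with 1 shared region in its body. EHMT2, DAXX and ATRX had no body peak.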

How the data were processed

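The authors deposited 1 broad peak list per ChIP replicate. The submitters' processing notes name Bowtie2 2.2.9, MACS2 2.1.1 and hg38 without saying what each did, and no source used here gives the settings. The deposited lists give, per peak, a score (not used), a fold enrichment (ratio over the caller's background) and −log10 p-values and −log10 q-values. These are the authors' own values. The labels tie each list to a replicate, and no source used here says how the inputs entered the calling. Genes on chromosomes 1 to 22 and X came from RefSeq (GRCh38.p14), and strand from its promoter table.

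Overlap needed 1 bp. Gene-end windows spanned 1 kb on each side of each gene end. Comparison genes were weighted to 4 length classes (edges at 10, 20 and 40 kb). Python 3.11.15, numpy 2.4.6, pandas 2.3.3 and scipy 1.17.1 were used, with Biopython for alignments, and the overlap functions were tested on simulated data. The planned count of fingers per protein was not analysed here. Named genes were the 10 best-ranked at an end and in the body, the 5 longest without peaks, the 5 with the highest cover, the best-ranked of each cluster at an end, and genes of textbook role; the rest are named in counts. Chosen after values were seen were the copied stretches (30 bases first, then 50), the flanks, the printed promoters, TCTCGCG and the subsets named in the closing section. The members and lists were chosen with earlier results of these data known. The only groups of samples are ChIP and input, and no peak list of the inputs was analysed here, so no test was made. Alternatives varied the peaks, windows, overlap, comparison genes, length classes and join distance.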

Additional observations from a re-analysis of the deposited data

How the results depend on the processing

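ZNF genes, or their clusters, stayed below the comparison in all 52 settings that were run over the 4 main comparisons, and none turned the direction. Differences here are ZNF genes minus other genes of chromosome 19 of like length. For the share with a shared region in the body, in percentage points, -42.4 became -20.5 when peaks needed a −log10 q of 2 or more, -26.1 with the 50% of peaks of higher fold and -26.1 with a reciprocal overlap of 50%. It was -24.3 against other genes inside the ZNF groups, -32.1 without length classes, and -37.0 to -19.1 with either replicate alone. For gene ends, -30.5 became -9.36 (−log10 q), -8.13 (higher fold), -4.34 (reciprocal overlap), -18.8 (inside the groups), -42.4 (windows of 5 kb) and -27.2 to -26.6 with either replicate alone. The difference in bases under peaks, -12.2 points, ran from -18.1 to -6.38 with either replicate alone and was -6.64 (−log10 q) and -7.48 (inside the groups); its tolerance, the spread of 2 replicates, is wide. The difference in peaks per Mb, -84.0, was -36.0 (−log10 q), -50.5 (higher fold) and -109 to -59.4 with either replicate alone. Fewer peaks entered under the −log10 q and fold settings. Chosen after seeing the data were the ZNF genes outside the 3 peak-poor clusters (38.9% against 75.6% in the body, 28.5% against 55.3% at ends) and those without ZNF536 (34.1% against 76.8% in the body). No paired analysis was possible because the inputs have no peak lists of their own here and no test was made. Unknown depth and the low enrichment limit what the absence of a peak shows.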
